A study of Homo sapiens with 9 samples.

Results

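The insulin-like growth factor (IGF) axis was followed in HepG2 cells, an established human liver cancer line, through 10 genes: the growth factor *IGF2*, the binding proteins *IGFBP1*, *IGFBP2*, *IGFBP3* and *IGFBP4*, the receptors *IGF1R*, *IGF2R* and *INSR*, and the adaptors *IRS1* and *IRS2*. They were picked by symbol and are 10 of the 12854 genes that both deposited tables list. The study examined what loss of the long noncoding RNA *TUG1* does to gene expression in hepatocellular carcinoma cells. The 3 groups (n = 3 libraries each) were HepG2 cells with a control hairpin (sh-Con) and HepG2 cells with 1 of 2 hairpins against *TUG1* (sh1-*TUG1* and sh2-*TUG1*). All groups, the control included, carried the lentiviral Tet-pLKO-Puro vector, whose hairpin is made on doxycycline, and grew in low-glucose DMEM with serum. The libraries of a group are described as technical replicates of 1 line, so each SD and each p-value covers the spread between libraries and not that between cultures or between independently made lines. *TUG1* itself was not analysed here, so the labels were not checked against the targeted RNA.

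IGF2 is a secreted growth factor that signals through the tyrosine kinase receptors encoded by *IGF1R* and *INSR*, while the product of *IGF2R*, the cation-independent mannose 6-phosphate receptor, takes it up for breakdown in lysosomes. IGF-binding proteins hold the factor in blood and in the space around cells, and IRS proteins pass the receptor signal on to PI3K and AKT. Liver is a major source of circulating IGFs and binding proteins, *IGF2* is a fetal liver gene that many liver tumours express, and *IGFBP1* is known as a gene that insulin represses.

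Each library held 33054291 to 39393293 counts, and levels are given as CPM, that is, counts scaled to a fixed library total, on 1 TMM scale for the 9 libraries, as mean ± SD. Of the liver markers, 10 of 10 were present, and their summed level was 47794 to 50001 CPM in sh-Con, 51198 to 52846 CPM in sh1-*TUG1* and 54128 to 56764 CPM in sh2-*TUG1*. That order rested on *ALB*, with group means of 13505, 18457 and 25387 CPM. Without *ALB*, a sum taken after the values were seen, the level was 34552 to 37221, 32892 to 33618 and 28751 to 31365 CPM. Of 10 markers of other liver cell types, 4 were among the genes used, and their summed level was 104 to 120 CPM in sh-Con, 88.3 to 95.9 CPM in sh1-*TUG1* and 64.5 to 72.5 CPM in sh2-*TUG1*. In the same order of groups, the means were 63.7, 35.2 and 20.8 CPM for *CD68*, 37.0, 44.6 and 33.4 CPM for *ACTA2*, 7.64, 7.95 and 8.33 CPM for *PECAM1*, and 1.49, 3.96 and 4.71 CPM for *VWF*. The part of these markers in the results was not tested. *PTPRC*, *CD3E*, *COL1A1*, *COL1A2*, *DCN* and *LYVE1* were not among the genes used. In bulk RNA, fewer cells making a transcript and less transcript per cell cannot be told apart.

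*IGF2*, *IGFBP2*, *IGFBP3* and *IGFBP4* fell in each knockdown line, and *IGF1R* and *IGF2R* rose. In sh1-*TUG1*, 5 genes were lower and 2 higher (adjusted p below 0.05 in edgeR's quasi-likelihood test, adjusted over all genes by Benjamini–Hochberg), where 12.3% of all genes were lower and 12.5% higher. In sh2-*TUG1*, 4 were lower and 5 higher, where 21.9% of all genes were lower and 21.6% higher. Both lines were compared with the same 3 control libraries, so the comparisons are not independent of each other. With a fold change over 1.5 added to the threshold, as differentially expressed genes (DEGs) are defined in the study, 4 of the 10 genes passed in sh1-*TUG1*, where 4.96% of all genes did so, and 5 of the 10 in sh2-*TUG1*, where 13.3% did so. *IGF2*, *IGFBP2*, *IGFBP3* and *IGFBP4* were the DEGs of sh1-*TUG1*, and *IRS2* joined them in sh2-*TUG1*. Over the 10 genes, the log2 fold change had a median of −0.27 in sh1-*TUG1* and 0.066 in the sh2-*TUG1* line, beside 0.0027 and −0.0048 over all genes. The number of higher genes was 1 in sh1-*TUG1* without its replicate 2 and 3 in sh2-*TUG1* without its replicate 1. Without sh1-*TUG1* replicate 2, 1017 of all genes were higher in that line, in place of 1633.

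A direct comparison of the hairpins, from 1 fit to the 9 libraries, called 3 of the 10 genes higher and 2 lower in sh2-*TUG1* relative to sh1-*TUG1*, where 21.0% of all genes were higher and 21.7% lower. *IGFBP1*, *INSR* and *IRS1* were the higher genes, and *IGF2* and *IGFBP4* the lower. *IGFBP4* alone among the 10 also passed the fold change of 1.5, which 10.6% of all genes did in either direction.

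**Figure D1:**
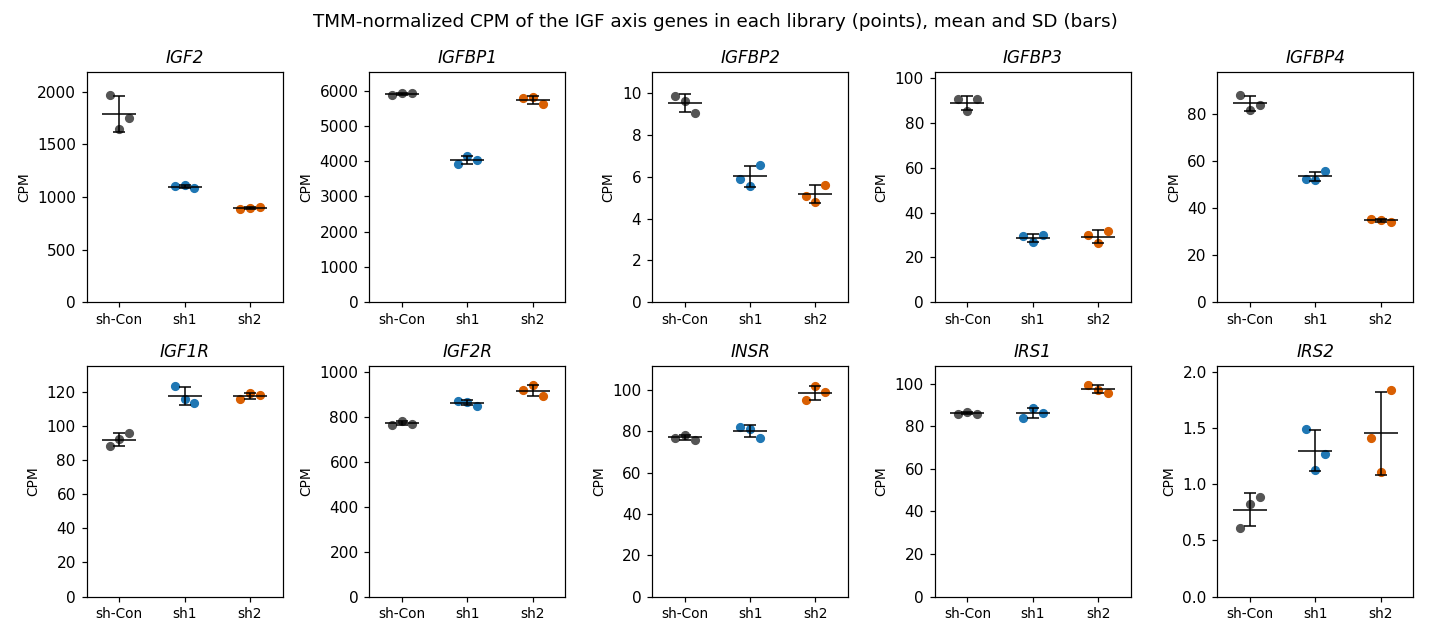
TMM-normalized CPM of each of the 10 genes in each library (points, y axes from 0), with the mean and SD of 3 libraries (bars) for sh-Con, sh1-*TUG1* and sh2-*TUG1*. *IGF2*, *IGFBP2*, *IGFBP3* and *IGFBP4* lie lower in both knockdown lines than in sh-Con, *IGFBP1* lies apart in sh1-*TUG1*, and *IGF1R* and *IGF2R* lie higher in both.

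*IGF2*, the only ligand among the 10 genes, lies at chr11:2129112-2149603 on the minus strand (GRCh38). It measured 1972.6, 1642.7 and 1752.5 CPM in the sh-Con libraries. The sh1-*TUG1* libraries held 1101.1, 1110.0 and 1087.9 CPM. The sh2-*TUG1* libraries held 881.68, 895.39 and 902.68 CPM. The 3 groups did not overlap, and the control libraries were the most spread, with an SD of 168 CPM beside 11.1 CPM in sh1-*TUG1* and 10.7 CPM in sh2-*TUG1*. *IGF2* fell by 0.70 on the log2 scale in sh1-*TUG1* (SE 0.059, adjusted p = 4.41e-05) and by 1.00 in sh2-*TUG1* (SE 0.062, adjusted p = 3.39e-06). Between the hairpins, *IGF2* was lower in sh2-*TUG1* by a log2 difference of −0.30 (SE 0.055, adjusted p = 0.0011). On the same strand, *IGF2* overlaps the readthrough gene *INS-IGF2*, the miRNA gene *MIR483*, the noncoding RNA gene *AC132217.1* and another protein-coding record named *IGF2*. *IGF2-AS* overlaps it on the other strand. The sources used here do not state how counting treated strand, so reads of these transcripts could be counted as *IGF2*.

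Among *IGFBP1* to *IGFBP4*, *IGFBP3* changed most, and by nearly the same amount in both lines. The product of *IGFBP3* is the main IGF carrier of blood plasma. Its level was 90.8, 85.6 and 90.7 CPM in sh-Con. In sh1-*TUG1* it was 29.5, 26.8 and 30.1 CPM. In sh2-*TUG1* it was 30.02, 26.25 and 31.67 CPM. All knockdown libraries lay far below the lowest control library, and the knockdown lines overlapped each other. *IGFBP3* fell by 1.63 on the log2 scale in sh1-*TUG1* (SE 0.062, adjusted p = 5.36e-07), 3.09-fold, and by 1.60 in sh2-*TUG1* (SE 0.075, adjusted p = 7.31e-07), 3.04-fold. The log2 difference between the hairpins was 0.026, with a 95% interval of −0.12 to 0.17.

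*IGFBP4* also fell in both lines, but further in sh2-*TUG1*. It encodes a binding protein that holds IGFs away from their receptor until the protease PAPP-A cleaves it. The gene of PAPP-A, *PAPPA*, was not among the genes used. For *IGFBP4*, the sh-Con libraries measured 88.1, 82.0 and 83.8 CPM. The sh1-*TUG1* libraries measured 52.7, 52.1 and 55.8 CPM, and the sh2-*TUG1* libraries 35.3, 34.9 and 34.3 CPM. The 3 groups were fully separated, in steps from sh-Con to sh1-*TUG1* to sh2-*TUG1*. The log2 fold change of *IGFBP4* was −0.66 in sh1-*TUG1* (SE 0.054, adjusted p = 3.90e-05) and −1.28 in sh2-*TUG1* (SE 0.055, adjusted p = 5.18e-07). The difference between the hairpins was −0.62 (SE 0.051, adjusted p = 3.19e-06).

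*IGFBP2*, a binding protein of fetal and tumour tissue, fell from a far lower level. Its 3 control libraries held 9.88, 9.61 and 9.05 CPM, its sh1-*TUG1* libraries 5.92, 5.57 and 6.58 CPM, and its sh2-*TUG1* libraries 5.08, 4.79 and 5.62 CPM. No knockdown library reached the lowest control library, and the 2 knockdown lines overlapped. The log2 fold change of *IGFBP2* was −0.66 in sh1-*TUG1* (SE 0.12, adjusted p = 0.00361) and −0.88 in sh2-*TUG1* (SE 0.12, adjusted p = 0.000438). At this depth the log2 difference between the hairpins, −0.22, had a 95% interval of −0.46 to 0.022.

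*IGFBP1* behaved differently in the 2 lines. It was the most abundant of the 10 genes and took 0.593% of all counts in sh-Con, 0.412% in sh1-*TUG1* and 0.560% in the sh2-*TUG1* line. The control libraries measured 5862.5, 5935.0 and 5924.8 CPM, the sh1-*TUG1* libraries 3922.3, 4149.9 and 4039.5 CPM, and the sh2-*TUG1* libraries 5799.9, 5806.1 and 5617.2 CPM. The sh1-*TUG1* libraries lay far below the other groups, and the sh2-*TUG1* libraries just below the control. *IGFBP1* fell by 0.55 on the log2 scale in sh1-*TUG1* (SE 0.034, adjusted p = 7.04e-06). The log2 fold change in sh2-*TUG1* was −0.044 (SE 0.036, adjusted p = 0.360), with a 95% interval of −0.11 to 0.027. The difference between the hairpins was 0.51 (SE 0.033, adjusted p = 6.24e-07). *IGFBP1* (chr7:45888357-45893668, plus strand) and *IGFBP3* (chr7:45912245-45921874, minus strand) are neighbours on chromosome 7, with facing 3′ ends.

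**Figure D2:**
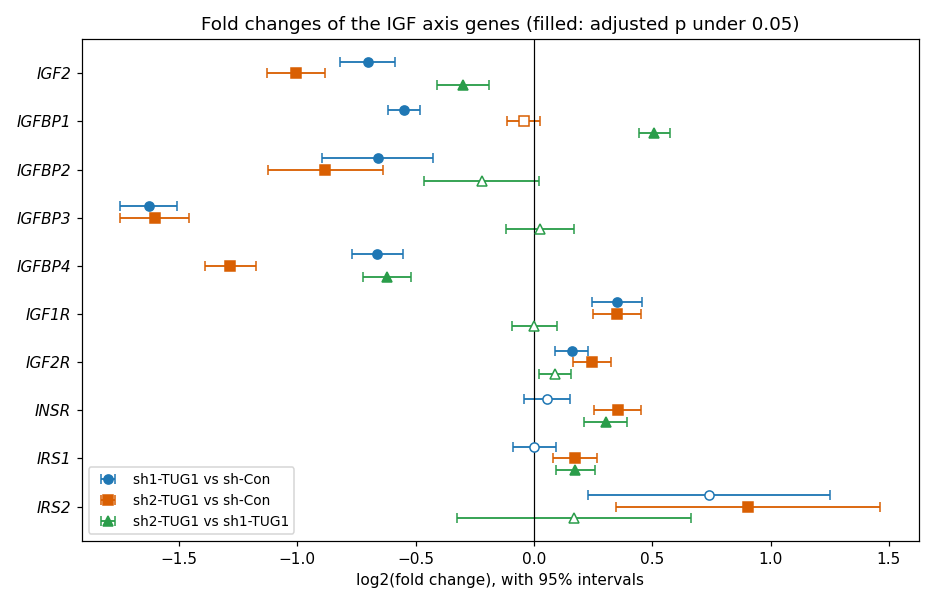
Log2 fold changes of the 10 genes for sh1-*TUG1* against sh-Con (circles), sh2-*TUG1* against sh-Con (squares) and sh2-*TUG1* against sh1-*TUG1* (triangles), with 95% intervals (bars), filled where the adjusted p was under 0.05. *IGFBP3* is farthest to the left in both lines with its triangle at 0.026, and *IGFBP1* is at −0.55 in sh1-*TUG1* and at −0.044 in sh2-*TUG1*.

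Of the receptors, *IGF1R* and *IGF2R* rose in both lines, and *INSR* rose in sh2-*TUG1*. *IGF1R*, the signalling receptor for IGFs, measured 88.0, 92.0 and 95.5 CPM in sh-Con, 123, 116 and 113 CPM in the sh1-*TUG1* libraries and 115, 119 and 118 CPM in sh2-*TUG1*. Every knockdown library was above every control library, and the 2 lines overlapped. *IGF1R* rose by 0.35 on the log2 scale in sh1-*TUG1* (SE 0.054, adjusted p = 0.00136) and by 0.35 in sh2-*TUG1* (SE 0.051, adjusted p = 0.000534). The log2 difference between the hairpins was 0.0016, with a 95% interval of −0.092 to 0.095.

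*IGF2R*, the clearance receptor, held 764, 779 and 766 CPM in sh-Con, 867, 867 and 849 CPM in the sh1-*TUG1* libraries and 917, 938 and 890 CPM in sh2-*TUG1*. The 3 groups did not overlap. *IGF2R* rose by 0.16 on the log2 scale in sh1-*TUG1* (SE 0.035, adjusted p = 0.0095) and by 0.25 in sh2-*TUG1* (SE 0.041, adjusted p = 0.0012). Without sh1-*TUG1* replicate 2 the first of these calls was lost (adjusted p = 0.0541). The log2 difference of *IGF2R* between the hairpins was 0.088 (SE 0.035, adjusted p = 0.0598). That difference passed the threshold with DESeq2 (adjusted p = 0.0341), with the 6 knockdown libraries alone (adjusted p = 0.0473) and without sh2-*TUG1* replicate 3 (adjusted p = 0.0367). The antisense gene *AIRN* overlaps *IGF2R*, and reads of the 2 strands could not be separated here.

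*INSR*, the insulin receptor, which in its short form also binds IGF2, rose in sh2-*TUG1* and was higher there than in sh1-*TUG1*. The sh-Con libraries held 76.8, 78.4 and 76.1 CPM, the sh1-*TUG1* libraries 82.1, 81.3 and 76.7 CPM, and the sh2-*TUG1* libraries 95.2, 102 and 99.2 CPM. The sh1-*TUG1* libraries overlapped the control, and the sh2-*TUG1* libraries were above both. The log2 fold change of *INSR* was 0.054 in sh1-*TUG1* (SE 0.050, adjusted p = 0.474) and 0.35 in sh2-*TUG1* (SE 0.051, adjusted p = 0.000475). The difference between the hairpins was 0.30 (SE 0.047, adjusted p = 0.000347).

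The 2 adaptors differed in level and in how firmly they could be measured. *IRS1* held 86.0, 86.6 and 85.9 CPM in sh-Con, 83.9, 88.7 and 86.4 CPM in the sh1-*TUG1* libraries and 99.5, 96.9 and 95.9 CPM in sh2-*TUG1*. The sh1-*TUG1* libraries lay on both sides of the control, and the sh2-*TUG1* libraries above it. The log2 fold change of *IRS1* was 0.0022 in sh1-*TUG1* (SE 0.047, 95% interval −0.089 to 0.094) and 0.17 in sh2-*TUG1* (SE 0.047, adjusted p = 0.0143). *IRS1* was higher in sh2-*TUG1* than in sh1-*TUG1* by 0.17 (SE 0.042, adjusted p = 0.00619). The rise in sh2-*TUG1* lost its call without sh2-*TUG1* replicate 1 (adjusted p = 0.0584) and with the replicate number as a block (adjusted p = 0.0543), and the difference between the hairpins lost it with library size alone as the scale (adjusted p = 0.0532).

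*IRS2* was near the lower end of what these libraries detected. The sh-Con libraries held 20, 28 and 33 counts of *IRS2*, the sh1-*TUG1* libraries 51, 41 and 48, and the sh2-*TUG1* libraries 46, 37 and 71. Scaled to depth, these were 0.610, 0.828 and 0.884 CPM in sh-Con, 1.49, 1.13 and 1.27 CPM in the sh1-*TUG1* libraries and 1.42, 1.11 and 1.84 CPM in sh2-*TUG1*. All 6 knockdown libraries were above all 3 control libraries. The log2 fold change of *IRS2* was 0.74 in sh1-*TUG1* (SE 0.26, adjusted p = 0.066) and 0.90 in sh2-*TUG1* (SE 0.29, adjusted p = 0.028). The call in sh2-*TUG1* was lost without sh-Con replicate 1, 2 or 3 or sh2-*TUG1* replicate 1 or 3, where the adjusted p was 0.0521 to 0.108. *IRS2* can be listed through the groups where it is high, so that call carries no weight. Between the hairpins the log2 difference was 0.17, with a 95% interval of −0.33 to 0.66.

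To set the genes beside each other, CPM were divided by the length of the merged exons of each gene in GENCODE 29, in kilobases (kb). In sh-Con, *IGFBP1* stood at 3573.8 ± 23.7 CPM per kb, rank 4 of 11808 genes, and *IGF2* at 256.4 ± 24.1 CPM per kb, rank 112. *IGF2R* (43.2 ± 0.464), *IGFBP4* (38.5 ± 1.42) and *IGFBP3* (19.5 ± 0.653 CPM per kb) followed. *IRS1* (8.66 ± 0.0376), *INSR* (7.38 ± 0.115) and *IGF1R* (6.59 ± 0.267 CPM per kb) were close together, then came *IGFBP2* (1.996 ± 0.0887) and *IRS2* (0.095 ± 0.018 CPM per kb). In sh-Con each neighbouring pair in this order was farther apart than the sum of its SDs. The SDs cover the spread between libraries and not the choice of exon length, so the order of close genes also depends on that length.

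The order changed lower down in the knockdown lines. *IGFBP3* moved from rank 2176 to rank 5661 in sh1-*TUG1* (6.30 ± 0.384 CPM per kb) and rank 5606 in sh2-*TUG1* (6.41 ± 0.608 CPM per kb), below *IRS1*, *INSR* and *IGF1R*. *IGF2* went from rank 112 to 188 in sh1-*TUG1* and 255 in the sh2-*TUG1* line, and kept its place after *IGFBP1*. *IGFBP4* went from rank 1038 to 1722 and 2760. *IRS1* (8.67 ± 0.241) and *IGF1R* (8.41 ± 0.376 CPM per kb) did not differ beyond their spread in sh1-*TUG1*, nor did *IRS1* (9.79 ± 0.188) and *INSR* (9.45 ± 0.322 CPM per kb) in sh2-*TUG1*.

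**Figure D3:**
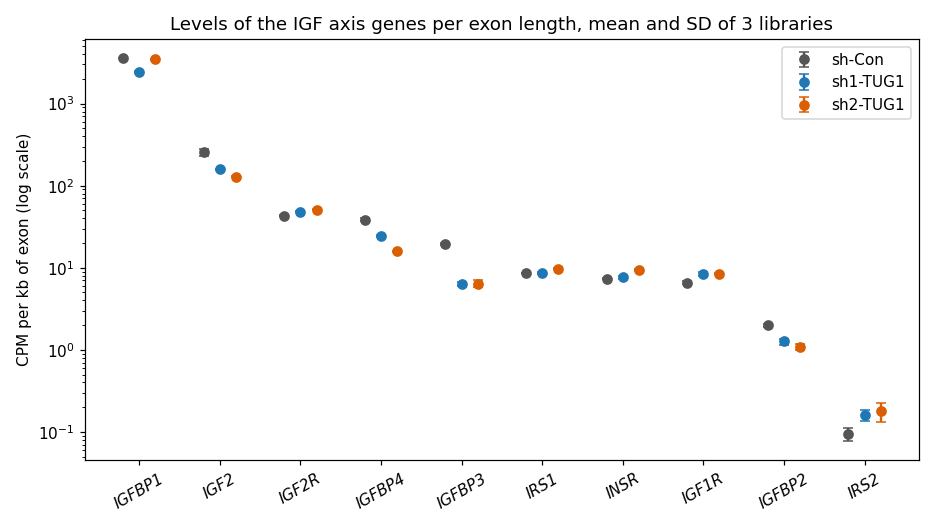
Level of each of the 10 genes in CPM per kb of exon (log scale), mean and SD of 3 libraries, for sh-Con, sh1-*TUG1* and sh2-*TUG1*, ordered by the sh-Con level. *IGFBP1* at 3573.8 and *IRS2* at 0.095 CPM per kb mark the ends of the range in sh-Con, and *IGFBP3* drops from 19.5 to 6.30 and 6.41 CPM per kb.

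Because *IGFBP1* dominated the binding proteins, their pooled transcript level followed it. *IGFBP1* made up 98.35 ± 0.064% of the summed *IGFBP1* to *IGFBP4* level per kb in sh-Con, 98.71 ± 0.0721% in sh1-*TUG1* and 99.33 ± 0.027% in the sh2-*TUG1* line. The sum of the other 3 binding proteins was 59.9 ± 1.98 CPM per kb in sh-Con, 31.9 ± 1.33 in sh1-*TUG1* and 23.3 ± 0.630 in the sh2-*TUG1* line. The total of all 4 binding proteins was 3633.7 ± 21.9 CPM per kb in sh-Con, 2474.3 ± 68.4 in sh1-*TUG1* and 3496.5 ± 64.6 in the sh2-*TUG1* line. The libraries of the 3 groups did not overlap in any of these quantities, and an exact two-sided permutation test gave p = 0.1 for each pair of groups, the smallest that 3 libraries against 3 allow.

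*IGF2* relative to that binding protein total was 0.0706 ± 0.00706 in sh-Con, 0.0637 ± 0.00166 in sh1-*TUG1* and 0.0366 ± 0.00106 in the sh2-*TUG1* line. The sh1-*TUG1* ratio overlapped the control (exact permutation p = 0.2, two-sided), whereas the sh2-*TUG1* ratio lay below both other groups (exact permutation p = 0.1). *IGF2R* relative to *IGF2* was 0.169 ± 0.0171 in sh-Con, 0.306 ± 0.00168 in sh1-*TUG1* and 0.401 ± 0.0133 in sh2-*TUG1*, with no overlap between groups (exact permutation p = 0.1 for each pair). *IGF1R* relative to *INSR* was 0.893 ± 0.0422 in sh-Con, 1.098 ± 0.0293 in sh1-*TUG1* and 0.892 ± 0.0168 in sh2-*TUG1*. For that ratio sh1-*TUG1* lay above both other groups (exact permutation p = 0.1), and sh2-*TUG1* overlapped the control (exact permutation p = 0.9). *IGFBP4* relative to *IGFBP3* was 1.98 ± 0.0503 in sh-Con, 3.87 ± 0.166 in sh1-*TUG1* and 2.48 ± 0.257 in sh2-*TUG1*, again without overlap (exact permutation p = 0.1 for each pair). These are ratios of RNA levels, and protein was not measured in these files.

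**Figure D4:**
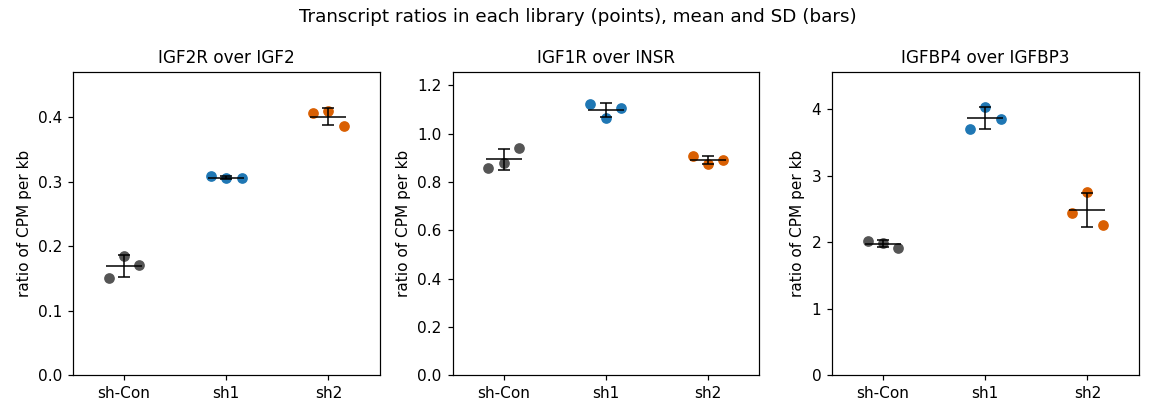
Ratios of CPM per kb in each library (points, y axes from 0) with the mean and SD of 3 libraries (bars), for *IGF2R* over *IGF2*, *IGF1R* over *INSR* and *IGFBP4* over *IGFBP3* in sh-Con, sh1-*TUG1* and sh2-*TUG1*. The first ratio climbs from 0.169 to 0.306 and 0.401, the second is highest in sh1-*TUG1* at 1.098, and the third is highest in sh1-*TUG1* at 3.87.

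The study concerns binding of miR-122-5p, a miRNA of hepatocytes, to *TUG1*, so the longest annotated 3′ UTR of each gene was searched for the match to its seed. A match was defined as the letters ACACTCC on the sense strand, the complement of miRNA bases 2 to 8. *IGFBP4* and *IGF1R*, 2 of the 10 genes, held 1 match each, beside 8.53% of 11707 genes with a 3′ UTR. The miRNA (RefSeq, GRCh38.p14, chr18:58451088-58451109, plus strand) is printed with its seed in capitals, and the sites with the matching letters in capitals.
hsa-miR-122-5p: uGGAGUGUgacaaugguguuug
IGFBP4 site: catgtggagACACTCCtataagg
IGF1R site: gctggcgacACACTCCgtccatc
The *IGFBP4* site lies in exon 4 of 4 at chr17:40457011-40457033, plus strand, in a 3′ UTR of 1148 bases, and the *IGF1R* site in exon 21 of 21 at chr15:98958130-98958152, plus strand, in a 3′ UTR of 7088 bases (GRCh38, GENCODE 29). The median 3′ UTR had 1331 bases. The 2 genes with a match moved in opposite directions, *IGFBP4* by −0.66 and −1.28 and *IGF1R* by 0.35 and 0.35 on the log2 scale in sh1-*TUG1* and sh2-*TUG1*. The 8 genes without a match included both falling and rising genes. A match is a description of the letters, and the miRNA was not measured in these files.

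Promoter windows, from 250 bases before to 50 bases after an annotated start, were given by RefSeq (GRCh38.p14) for 8 of the 10 genes, in 10 windows. They were searched on both strands for 5 motifs: the FOXO consensus GTAAACA, the insulin response core CAAAACA, the hypoxia response core ACGTG, the E-box CACGTG and its palindromic extension TCACGTGA. ACGTG lies within CACGTG, and CACGTG within TCACGTGA. GTAAACA was in none of the 10 windows and in 3.42% of 35116 windows of all genes. CAAAACA was in the *IRS2* window alone among the 10, and in 4.92% of all windows. CACGTG was in the windows of *IGF2R* and *IRS1*, and in 7.26% of all windows, while ACGTG was in these and in windows of *IGFBP2* and *IGF1R*, and in 21.4% of all windows. The *IGF2R* window is shown because it held TCACGTGA 3 times, which 4 of the 35116 windows did and 0.980% held at least once. The longer motif was added after this window had been read. The *IGF2R* window lies at chr6:159968832-159969131 on the plus strand, and capitals mark the 3 matches.
IGF2R promoter: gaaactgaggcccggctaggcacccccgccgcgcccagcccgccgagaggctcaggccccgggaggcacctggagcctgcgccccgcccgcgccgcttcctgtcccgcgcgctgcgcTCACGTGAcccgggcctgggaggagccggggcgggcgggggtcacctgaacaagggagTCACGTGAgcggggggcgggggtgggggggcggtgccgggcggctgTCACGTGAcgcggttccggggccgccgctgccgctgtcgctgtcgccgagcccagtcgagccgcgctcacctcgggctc
The *IGF1R* window held no CACGTG. No binding or chromatin data go with these libraries.

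For the 2 genes with the widest range of group means, *IGFBP3* (1.63 on the log2 CPM scale) and *IGFBP4* (1.28), the genes nearest in pattern were sought among 9053 genes, as the root-mean-square distance of centred log2 CPM over the 9 libraries. Among the 3 nearest to *IGFBP3* were *APOL2* (distance 0.133) and *HCAR3* (0.151). Nearest to *IGFBP4* were *NPTXR* (0.0657), *SEMA3B* (0.0760) and *SEMA3G* (0.0796). *APOL2*, an apolipoprotein L gene, had log2 fold changes of −1.43 in sh1-*TUG1* and −1.44 in the sh2-*TUG1* line, and *SEMA3B*, a secreted semaphorin, −0.63 and −1.16. The distances describe these 9 libraries, whose groups each come from 1 line.

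Other genes of the IGF system were read from a list of 23, of which 12 were in the sh1-*TUG1* table and 11 in the sh2-*TUG1* table. In sh1-*TUG1*, 3 were higher (*FURIN*, *TMEM219* and *IGFALS*) and 2 lower (*STC2* and *GRB10*), or 25.0% and 16.7% of those tested, beside 12.5% and 12.3% of all genes. In sh2-*TUG1*, 3 were higher (*FURIN*, *IGF2BP2* and *GRB10*) and 4 lower (*STC2*, *IGFBP6*, *IGFBP7* and *TMEM219*), or 27.3% and 36.4%, beside 21.6% and 21.9% of all genes. With 11 or 12 genes tested, nothing particular to the list was read from these shares. Of these, *IGFALS*, *GRB10*, *IGF2BP2* and *IGFBP7* were named after their values were seen. *IGFALS* (log2 fold change 1.75, SE 0.33) was listed for sh1-*TUG1* and not for sh2-*TUG1*. A gene can be listed through the group where it is high, so its call and its part in the 25.0% carry no weight. *IGFBP7* had a log2 fold change of −1.64 in sh2-*TUG1* (SE 0.37, adjusted p = 0.006) at a mean level of 1.45 CPM in sh-Con. *GRB10* and *TMEM219* moved in opposite directions in the 2 lines. For *GRB10* the log2 fold changes were small, −0.21 in sh1-*TUG1* and 0.14 in sh2-*TUG1* (adjusted p = 0.0173 and 0.0375, quasi-likelihood test). The *GRB10* calls were not followed on leaving out libraries. The median log2 fold change of the list was −0.0077 in sh1-*TUG1* and −0.027 in the sh2-*TUG1* line. Without sh1-*TUG1* replicate 2, 1 gene of the list was lower in sh1-*TUG1*, and 1019 of all genes were, in place of 1599.

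*FURIN*, a protease that cleaves the precursors of *IGF1R* and *INSR*, measured 282, 269 and 261 CPM in sh-Con, 348, 352 and 327 CPM in the sh1-*TUG1* libraries and 548, 551 and 560 CPM in sh2-*TUG1*. The 3 groups did not overlap. *FURIN* rose by 0.34 on the log2 scale in sh1-*TUG1* (SE 0.046, adjusted p = 0.000735) and by 1.03 in sh2-*TUG1* (SE 0.045, adjusted p = 5.64e-07), and by 0.69 in sh2-*TUG1* over sh1-*TUG1* (SE 0.043, adjusted p = 4.82e-07). *STC2*, a secreted inhibitor of the protease that cleaves *IGFBP4* protein, had log2 fold changes of −0.30 (SE 0.041, adjusted p = 0.000704) and −0.38 (SE 0.044, adjusted p = 0.000149) in sh1-*TUG1* and sh2-*TUG1*. *IGFBP6*, a binding protein that prefers IGF2, had values of −0.22 (SE 0.12, adjusted p = 0.239) and −1.09 (SE 0.14, adjusted p = 0.000209), and the difference between the hairpins was −0.87 (adjusted p = 0.000209). *TMEM219*, a membrane protein that binds *IGFBP3* protein, had values of 0.21 (adjusted p = 0.0205) and −0.27 (adjusted p = 0.0147), with a difference of −0.48 (adjusted p = 0.000146). The *TMEM219* call in sh1-*TUG1* was lost without sh-Con replicate 2 or 3 or any 1 of the sh1-*TUG1* replicates (adjusted p = 0.0559 to 0.0767), and that in sh2-*TUG1* without sh2-*TUG1* replicate 2 or 3 (adjusted p = 0.0575 and 0.0533).

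Signalling genes downstream of the receptors were read from a list of 56, of which 55 were tested. In sh1-*TUG1*, 10 were higher and 6 lower, with a median log2 fold change of 0.089. In sh2-*TUG1*, 18 were higher and 5 lower, with a median of 0.060. The shares were 18.2% higher and 10.9% lower in sh1-*TUG1*, beside 12.5% and 12.3% of all genes, and 32.7% and 9.09% in sh2-*TUG1*, beside 21.6% and 21.9%. In sh1-*TUG1* the number of higher genes was 16 without sh-Con replicate 1 and 6 without sh-Con replicate 3 or sh1-*TUG1* replicate 2, and that of lower genes was 3 without sh-Con replicate 2 or sh1-*TUG1* replicate 2 or 3 and 2 without sh1-*TUG1* replicate 1. In sh2-*TUG1* the number of lower genes was 3 without sh2-*TUG1* replicate 2.

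Of the listed genes of PI3K and AKT, *PIK3R1*, *PIK3R3* and *AKT2* rose in both lines, and the others did not. *PIK3CA* and *PIK3CD* were called in neither line. In sh1-*TUG1*, *PIK3CB* was called lower (log2 fold change −0.23) and *AKT1* higher (0.19), and neither was called in sh2-*TUG1*. *PIK3R1*, *PIK3CA*, *PIK3CB*, *PIK3CD* and *AKT1* were named after their values were seen. *PIK3R3*, a regulatory subunit of PI3K, had log2 fold changes of 0.56 in sh1-*TUG1* (SE 0.15, adjusted p = 0.0222) and 0.92 in sh2-*TUG1* (SE 0.10, adjusted p = 0.000123), and the call in sh1-*TUG1* was lost without sh-Con replicate 3 or sh1-*TUG1* replicate 1 or 3 (adjusted p = 0.0730 to 0.0875). *FOXO4*, a transcription factor that AKT inactivates, rose by 0.55 (SE 0.12, adjusted p = 0.00949) and 0.72 (SE 0.12, adjusted p = 0.00136), and *AKT2* by 0.24 (SE 0.045, adjusted p = 0.0047) and 0.33 (SE 0.050, adjusted p = 0.000689). *FOXO1* (0.12 and −0.14) and *FOXO3* (−0.066 and −0.037), named after their values were seen, were called in neither line. The adaptor *SHC1*, which leads from the receptors to RAS, fell by 0.42 (SE 0.044, adjusted p = 0.000149) and 0.27 (SE 0.051, adjusted p = 0.00248). A further 3 genes were picked for the size of their difference between the hairpins. *PIK3IP1*, a membrane inhibitor of PI3K, was low, with means of 4.96 CPM in sh-Con, 3.89 CPM in sh1-*TUG1* and 1.76 CPM in sh2-*TUG1*. It had log2 fold changes of −0.35 in sh1-*TUG1* (adjusted p = 0.196) and −1.49 in the sh2-*TUG1* line (adjusted p = 0.00025). *SOCS1*, a feedback inhibitor of cytokine and insulin signals, had values of 0.14 (adjusted p = 0.457) and −0.79 (adjusted p = 0.00182). *PIK3R2*, another regulatory subunit of PI3K, had values of 0.33 (adjusted p = 0.0137) and −0.25 (adjusted p = 0.110). The first *PIK3R2* call was lost without sh-Con replicate 2 or 3 or sh1-*TUG1* replicate 1 or 2 (adjusted p = 0.0514 to 0.0646), and *PIK3R2* in sh2-*TUG1* was called with DESeq2 (adjusted p = 0.0431) and without sh2-*TUG1* replicate 3 (log2 fold change −0.41, adjusted p = 0.00624).

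FOXO factors are kept out of the nucleus by insulin and IGF signals. Their targets were read from a list of 26 symbols (*G6PC* and *G6PC1* name the same gene), of which 23 were tested. In sh1-*TUG1*, 8 were higher and 4 lower, and in sh2-*TUG1*, 6 were higher and 5 lower, with median log2 fold changes of 0.060 and 0.047. The shares were 34.8% and 17.4% in sh1-*TUG1*, beside 12.5% and 12.3% of all genes, and 26.1% and 21.7% in sh2-*TUG1*, near the 21.6% and 21.9% of all genes. *G6PC*, the glucose 6-phosphatase of liver glucose output, rose by 0.78 in sh1-*TUG1* (SE 0.14, adjusted p = 0.00357) and 1.03 in sh2-*TUG1* (SE 0.12, adjusted p = 0.000155). *KLF15*, a transcription factor of the fasting liver, rose by 0.69 (SE 0.089, adjusted p = 0.000557) and 0.61 (SE 0.080, adjusted p = 0.000304), and *BCL6*, a transcriptional repressor, by 0.42 (SE 0.064, adjusted p = 0.00141) and 0.93 (SE 0.063, adjusted p = 5.28e-06). *BNIP3*, a mitophagy gene that is also induced by hypoxia, fell by 0.68 (SE 0.050, adjusted p = 1.88e-05) and 0.78 (SE 0.048, adjusted p = 3.04e-06). *CITED2*, a transcriptional coregulator, fell by 0.47 (SE 0.070, adjusted p = 0.00116) and 0.85 (SE 0.085, adjusted p = 5.69e-05), and *MXI1*, an antagonist of MYC, by 0.45 (SE 0.057, adjusted p = 0.000517) and 0.52 (SE 0.058, adjusted p = 0.000113).

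A further 3 FOXO targets differed most between the hairpins. *SESN3*, a stress-induced sestrin, was low, with means of 2.22 CPM in sh-Con, 4.68 CPM in sh1-*TUG1* and 2.27 CPM in sh2-*TUG1*. It had log2 fold changes of 1.07 in sh1-*TUG1* (SE 0.18, adjusted p = 0.00256) and 0.024 in sh2-*TUG1* (SE 0.21, adjusted p = 0.939). *CAT*, catalase, had values of 0.060 (SE 0.067, adjusted p = 0.564) and −0.62 (SE 0.069, adjusted p = 0.000117). *PPARGC1A*, a coactivator of glucose output genes, had values of 0.12 (SE 0.054, adjusted p = 0.130) and 0.66 (SE 0.053, adjusted p = 1.40e-05). The listed targets did not share a direction within either line, and *IGFBP1*, itself a known FOXO target, fell in sh1-*TUG1* and was not called in sh2-*TUG1*.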

How the data were processed

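RNA-seq was done on 9 HepG2 libraries, 3 per group, and the labels gave the group and number of each. The authors deposited, per knockdown line, a table of raw read counts per gene, and the counts of sh-Con are the same in both tables for all 12854 shared genes. The tables also hold FPKM values that the authors computed, and a false discovery rate (an adjusted p-value) and a log2 fold change of the authors' own comparison, none of which were used here. The submitters' processing notes name HISAT2, StringTie and GRCh38. The counting tool, its annotation and its use of strand are not given in the sources used here. Per-sample columns without a sample numbered 0.

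All 13017 and 12953 genes were tested in R 4.3.3 with edgeR 4.0.16 (TMM, quasi-likelihood test, Benjamini–Hochberg adjustment), with 1 fit of 6 libraries for each line and 1 fit of 9 for the difference between the hairpins. The filterByExpr function of edgeR removed 0 genes. The lowest total of a gene over its 6 libraries was 152 and 140 counts, so genes with fewer reads had been left out before deposit. A fit was first tested on simulated data. Log2 CPM had a prior count of 2. DESeq2 1.42.0, RLE size factors, library size alone, a stricter filter, other sets of libraries, the replicate number as a block and leaving out each library were alternatives. Libraries of a group differed by more than read sampling (chi-squared per degree of freedom 6.41 to 25.8), and counting error alone does not set the SEs. Positions and exon lengths are from GENCODE 29. *TUG1* was not analysed here, and 1 gene that the likeness rule selects is not reported here.

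The 10 genes and the gene lists were chosen with earlier results of these data known. From each other list were named up to 3 genes per direction ranked by the smaller of their changes in the 2 lines, among genes called in the same direction in both lines with a mean of at least 50 counts, and up to 3 with the largest called difference between the hairpins.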

Additional observations from a re-analysis of the deposited data

Results flagged for a closer look

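In all, 18 results drew a closer look because the effect of one hairpin differed from that of the other in a direct test of sh2-*TUG1* against sh1-*TUG1* (edgeR's quasi-likelihood test over 12854 genes, adjusted p under 0.05). All values that follow are log2 differences, sh2-*TUG1* minus sh1-*TUG1*. Among the 10 genes of the IGF axis, they were −0.30 for *IGF2*, 0.51 for *IGFBP1*, −0.62 for *IGFBP4*, 0.30 for *INSR* and 0.17 for *IRS1*. Of these, *IGF2* and *IGFBP4* fell in both lines and further in sh2-*TUG1*, *IGFBP1* fell in sh1-*TUG1*, and *INSR* and *IRS1* rose in sh2-*TUG1*. Among the other genes of the IGF system they were 0.69 for *FURIN*, −0.87 for *IGFBP6* and −0.48 for *TMEM219*. Among the signalling genes they were 0.36 for *PIK3R3*, 0.16 for *SHC1*, −1.14 for *PIK3IP1*, −0.93 for *SOCS1* and −0.58 for *PIK3R2*. Among the FOXO targets they were 0.51 for *BCL6*, −0.37 for *CITED2*, −1.05 for *SESN3*, −0.67 for *CAT* and 0.54 for *PPARGC1A*. *FURIN*, *IGFBP6*, *TMEM219*, *PIK3IP1*, *SOCS1*, *PIK3R2*, *SESN3*, *CAT* and *PPARGC1A* were picked for a called difference in this same test. Their place among the flagged results was fixed by that choice and adds no support. The *PIK3R3* difference lost its call without sh1-*TUG1* replicate 2 or any 1 of the sh2-*TUG1* replicates (adjusted p = 0.0609 to 0.149), that of *SHC1* without sh2-*TUG1* replicate 3 (adjusted p = 0.0508), and both with library size alone (adjusted p = 0.0913 and 0.0985). Over all genes the same test called 21.0% higher and 21.7% lower, so a difference between the hairpins was common. Each hairpin is 1 line, so the hairpin and the line that carries it cannot be told apart. Groups of 3 libraries were not searched for outlying libraries.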

How the results depend on the processing

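Of 390 pairs of a gene of the axis and an alternative, 362 kept their direction and their side of the threshold, 16 turned direction, 9 lost a call and 3 gained one. For the other named genes the numbers were 748 of 780, 3, 22 and 7. The calls of *IGF2*, *IGFBP1*, *IGFBP2*, *IGFBP3*, *IGFBP4*, *IGF1R* and *INSR* held under every alternative run. All values that turned direction belonged to differences that were not called. They were *IRS1* in sh1-*TUG1*, −0.00049 with RLE size factors, −0.00042 with DESeq2 and −0.017 to 0.023 on leaving out 1 library, and *SESN3* in sh2-*TUG1*, −0.012 with library size alone and −0.096 to 0.13 on leaving out 1 library. Between the hairpins they were *IGFBP3*, −0.038 with library size alone and −0.037 to 0.099 on leaving out 1 library, *IGF1R*, −0.062 with library size alone, −0.0013 with the 6 knockdown libraries and −0.024 to 0.038 on leaving out 1 library, and *IRS2*, −0.045 to 0.33 on leaving out 1 library. Scaling moved the median of all genes by at most 0.064 in size (−0.064, library size alone).

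Counts moved by over 1.5 times as follows. On leaving out 1 library, the 10 genes had 1 to 2 higher in sh1-*TUG1* and 3 to 5 in sh2-*TUG1*, the other IGF genes 1 to 2 lower in sh1-*TUG1*, and the signalling genes 6 to 16 higher and 2 to 7 lower in sh1-*TUG1* and 3 to 5 lower in sh2-*TUG1*. Over all genes, the higher in sh1-*TUG1* numbered 1087, 1017 and 1053 without its replicates 1, 2 and 3, in place of 1633. The lower numbered 1019 and 1028 without its replicates 2 and 3, in place of 1599. No other number over all genes moved by over 1.5 times on leaving out 1 library. With library size alone, 10 signalling genes were higher in sh2-*TUG1* than in sh1-*TUG1* in place of 17. With the fold change of 1.5 added, which by construction calls fewer genes, the 10 genes had 0 higher in sh1-*TUG1*, 1 higher in sh2-*TUG1*, and 0 higher and 1 lower between the hairpins. The other IGF genes then had 1 higher and 0 lower, 1 and 2, and 1 and 2, the signalling genes 0 and 0, 3 and 3, and 0 and 3, and the FOXO targets 3 higher and 1 lower in sh1-*TUG1*, 3 lower in sh2-*TUG1*, and 0 and 2 between the hairpins. Of the other IGF genes, the 1 higher in sh1-*TUG1* was *IGFALS*. *IGFBP7* was 1 of the 2 lower in sh2-*TUG1* and between the hairpins. The calls of *IGFALS* and *IGFBP7* carry no weight. In other cases the cause was not tested.

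The replicate numbers did not pair the libraries (correlations of same-numbered deviations −0.194 to 0.050). With the number as a replicate block, the 10 genes had 2 higher and 5 lower in sh1-*TUG1*, 4 and 4 in the sh2-*TUG1* line, and 3 and 2 between the hairpins, all genes 1422 and 1347, 2431 and 2490, and 2396 and 2514, and *IRS1* in sh2-*TUG1* (adjusted p = 0.0543) and *PIK3R3* between the hairpins (adjusted p = 0.0542) lost their call. Depth limits *IRS2*, with 20 to 71 counts a library, and 3 libraries a group cannot give an exact permutation p under 0.1.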
